A study of Mus musculus with 3 samples.

Results

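Fibroblast growth factor (FGF) signalling in the developing mouse kidney is described here from its ligands, its receptors and a few of their partners. The genes were taken by symbol: array features with exactly 1 annotated symbol that was an FGF ligand (Fgf and a number), a receptor (Fgfr1 to Fgfr4), or Fgfrl1, Frs2, Frs3, Spred1, Spred2, Spry4 or Fgfbp1. This gave 32 of the 15096 named genes on the array: 22 ligands, 5 receptors and 5 accessory or inhibitor genes, measured by 35 features. Frs2 was not analysed here. The material was fetal kidney at 13.5 days post coitum (dpc) and metanephroi, the rudiments of the permanent kidney, at 11.5 dpc. Both came from embryos of normal CD1 mice by microdissection, with the sexes pooled, and amplified RNA was labelled. Each of 3 two-colour Compugen mouse oligonucleotide arrays carried both ages, with 13.5 dpc in channel 2 and 11.5 dpc in channel 1. The dye order was red/green on arrays 1 and 2 and green/red on array 3, per the labels.

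FGF ligands bind receptor tyrosine kinases together with heparan sulfate, and the activated receptor signals through the adaptor FRS2 to the Ras and MAP kinase cascade. Sprouty and SPRED proteins are feedback inhibitors of that cascade. In the kidney, FGF receptors act in the ureteric bud, where the epithelial form of FGFR2 answers stromal ligands, and in the mesenchyme, where FGF9 and FGF20 maintain nephron progenitors and FGF8 is needed by the first nephron structures. The design sets the RNA of 13.5 dpc kidneys against that of 11.5 dpc rudiments.

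The deposited values are log2 ratios of the channels and carry no level, so genes are never ranked by abundance below, and whether a gene is detectably expressed at either age cannot be read from them. Values above 0 are read as higher at 11.5 dpc and values below 0 as higher at 13.5 dpc. That direction is likely, because the labels name 11.5 dpc first with the dyes red/green and put it in channel 1, but it is not settled, and every direction below turns if it is wrong. Nor do the labels say whether the ratio of array 3, with the other dye order, was already turned to match. Rows at least 2-fold in the same direction on every array numbered 130 as deposited and 42 with the sign of array 3 turned. Rows with 1 sign on all arrays numbered 6713 and 5558. Which reading of array 3 is right was not tested. Values existed for 20601 to 21563 gene features per array, and 19015 rows (1 per gene or unnamed feature) had a value on every array. Array 3 stands apart: across the features with all values, its Pearson correlation was 0.11 with array 1 and -0.12 with array 2, against 0.27 between arrays 1 and 2. Genes measured by 2 features showed how far features with the same gene name agreed. Over 846 such genes the features correlated at -0.0092, 0.038 and -0.0105 on arrays 1, 2 and 3, and differed in sign for 48.9%, 46.3% and 49.9% of genes. Whether imprecise values or the assignment of features to genes lay behind this was not tested. Most FGF genes had a single feature, so their values could not be checked in this way. In bulk tissue, fewer cells of a type and less RNA per cell cannot be told apart.

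Of the 32 genes, 30 had a value on all 3 arrays (21 ligands, 5 receptors, 4 accessory genes), and 24 of those had a mean below 0, on the 13.5 dpc side, as had 50.9% of all rows. The median of their mean log2 ratios was -0.22, against -0.0084 over all rows. With a running median over library positions subtracted, 4 of the 30 means changed sign. The signs were the same after median and scale adjustment and quantile normalisation. They were also the same after median centring, but that moved every mean by the same small amount (members' median -0.2225 to -0.2172). It could therefore change no member's sign. Below 0 on every array were 9 members (Fgf1, Fgf7, Fgf12, Fgf13, Fgf18, Fgf20, Fgf22, Fgfr4 and Spred1), or 30% of them, beside 18.5% of all rows. No member was above 0 on every array, where 16.8% of all rows were. After median centring 5 remained below 0 on every array (Fgf7, Fgf12, Fgf13, Fgfr4 and Spred1) and Fgf16 was above 0 on every array. These are 16.7% and 3.33% of the members, beside 18% and 17.8% of all rows, so the share of members below 0 was then not above that of all rows. None reached 2-fold on each array in the same direction (0.684% of all rows did), and limma, fitted over all rows, called 0 members at an adjusted p under 0.05 (0% of all rows). At an unadjusted limma p under 0.05 there was 1 member, Fgf12, beside 9.24% of all rows (5.07% below 0 and 4.17% above 0). The ordinary test without variance moderation called 0 members adjusted and 0 unadjusted, beside 9.62% of all rows unadjusted.

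**Figure D1:**
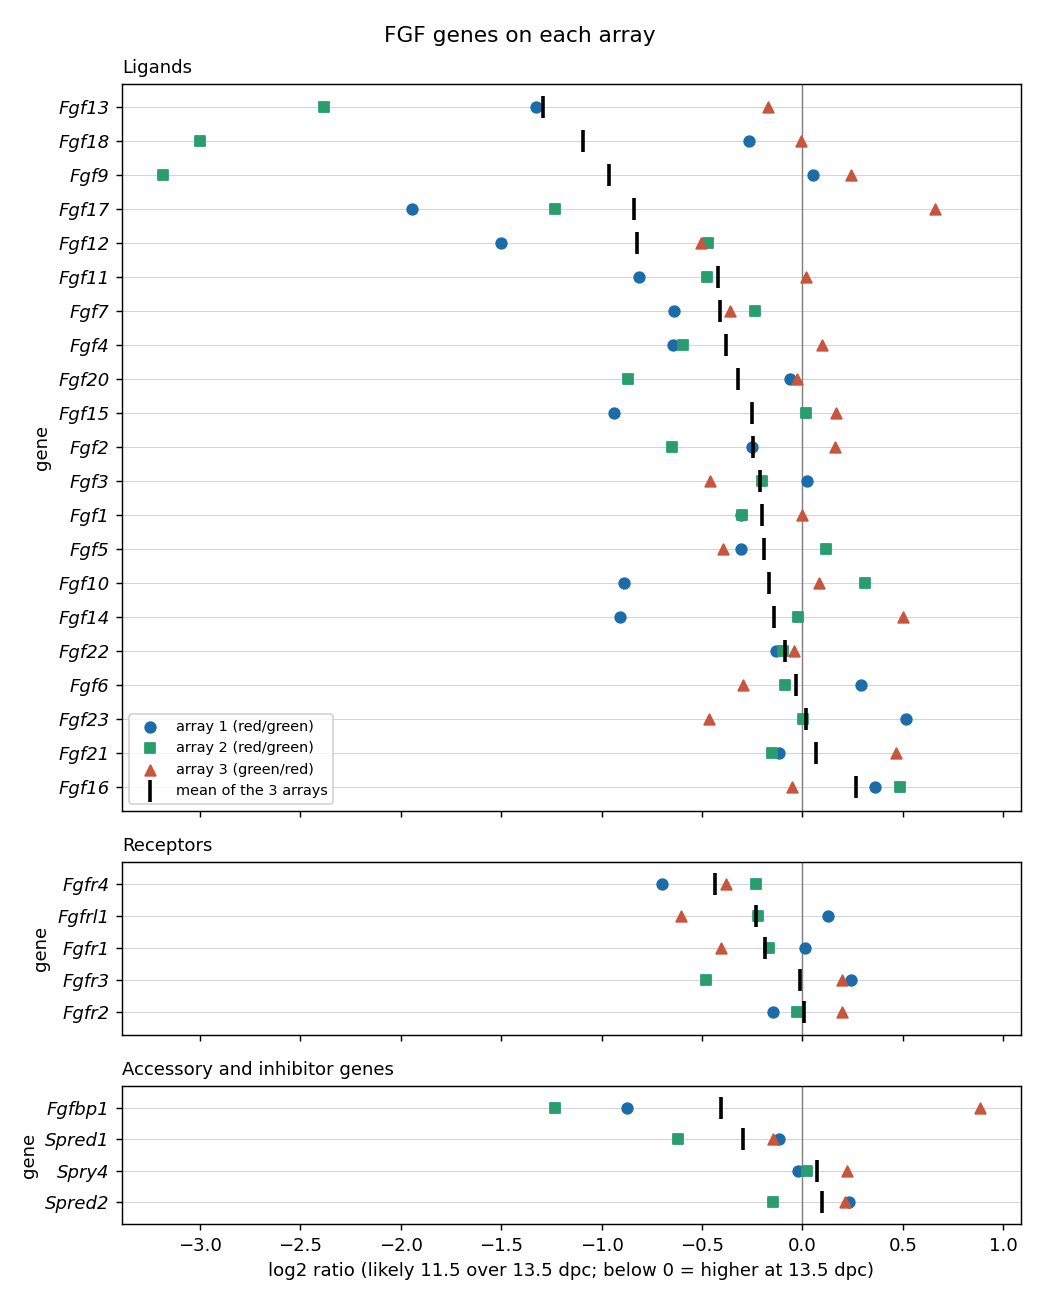
The log2 ratio of each of the 30 FGF genes with all values (horizontal axis, no unit) is plotted on array 1 (circles), array 2 (squares) and array 3 (triangles), with a bar at the mean, in panels for ligands, receptors and accessory genes. Most circles and squares of the ligands lie below 0, the triangles lie on both sides of it, and Fgf9 and Fgf18 are far below 0 on array 2 only.

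The ligands of the intracellular subfamily, Fgf11 to Fgf14, lay on the 13.5 dpc side in their means. These FGF homologous factors are not secreted and are known for binding voltage-gated sodium channels in neurons. All 4 means were below 0, with a median of -0.62, against -0.21 for the 17 secreted ligands with all values. All 4 were below 0 on arrays 1 and 2, while 2 of them were on array 3. Fgf13 had -1.33, -2.38 and -0.17 on arrays 1, 2 and 3. Its mean was -1.29 ± 1.10 (SD, n = 3 arrays), or 2.45-fold higher at 13.5 dpc, with a limma 95% interval from -2.59 to 0.0070 and an adjusted p of 0.539. Array 3 lay nearest to 0 and array 2 farthest, so the mean was -1.85 without array 3 and -0.75 without array 2. Fgf12 had -1.50, -0.47 and -0.51, with a mean of -0.83 ± 0.59 and an interval from -1.59 to -0.058 (limma unadjusted p = 0.0404, adjusted p = 0.539). Its mean was -0.49 without array 1 and also with array 3 turned, and its unadjusted p was no longer under 0.05 without any 1 array, with array 3 turned or with a dye term. The interval of Fgf12 as deposited lay wholly below 0, and those of the other 29 members with all values included 0. Fgf11, with 2 features, had a mean of -0.42 ± 0.42, and Fgf14 one of -0.14 ± 0.71, which became 0.24 without array 1. Fgf13, the first feature of Fgf11 and Fgf14 lie side by side in the oligonucleotide library, at positions 4746, 4747 and 4748. With a running median over library positions subtracted, the means were -1.14 for Fgf13, -0.69 for Fgf12, -0.36 for Fgf11 and 0.0011 for Fgf14.

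Markers of sympathetic neurons and neural crest lay on the same side. Of 6 listed markers 4 had values, 3 of them (Th, Hand2 and Uchl1) below 0 on every array with means of -1.03 to -1.10, and Sox10 had -0.14 ± 0.85. The median of the 4 was -1.13, -0.88 and -0.88 on arrays 1, 2 and 3, where the intracellular ligands had -1.12, -0.47 and -0.077. This side was not particular to the neural list. Median means were also below 0 for markers of renal vesicle (-0.70), gonad and adrenal (-0.48), endothelium (-0.47), cap mesenchyme (-0.24) and muscle (-0.16). They were above 0 for ureteric bud (0.13), stroma (0.54) and erythroid markers (1.28). The part of neural tissue in the values of Fgf11 to Fgf14 was not tested.

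The sequence before the start of a gene is shown for the 4 ligands and receptors that were below 0 on every array before and after median centring. These are the 250 bases before the RefSeq start (GRCm38.p6), 5′ to 3′ on the gene's strand, with capitals at 3 searched motifs. Fgf12 and Fgf13 have 4 annotated starts each, of which the one farthest upstream is printed, since the array feature does not say which start it reports.
Fgf7, chr2:126034408-126034657, plus strand: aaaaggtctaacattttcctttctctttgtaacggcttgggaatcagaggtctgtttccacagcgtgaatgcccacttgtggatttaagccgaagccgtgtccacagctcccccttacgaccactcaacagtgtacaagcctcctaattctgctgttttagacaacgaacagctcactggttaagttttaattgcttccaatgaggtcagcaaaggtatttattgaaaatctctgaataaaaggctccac
Fgf12, chr16:28753244-28753493, minus strand: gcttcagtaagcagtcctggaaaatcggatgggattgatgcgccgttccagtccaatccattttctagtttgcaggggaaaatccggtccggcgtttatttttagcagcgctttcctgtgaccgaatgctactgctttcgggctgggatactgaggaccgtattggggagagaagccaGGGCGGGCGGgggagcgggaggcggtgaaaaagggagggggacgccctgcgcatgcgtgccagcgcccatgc
Fgf13, chrX:59585573-59585822, minus strand: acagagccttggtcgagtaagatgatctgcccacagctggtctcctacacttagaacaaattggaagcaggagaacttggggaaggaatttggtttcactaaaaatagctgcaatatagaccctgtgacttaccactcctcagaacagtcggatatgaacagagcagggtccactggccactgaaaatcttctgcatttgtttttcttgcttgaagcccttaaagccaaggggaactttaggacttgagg
Fgfr4, chr13:55152568-55152817, plus strand: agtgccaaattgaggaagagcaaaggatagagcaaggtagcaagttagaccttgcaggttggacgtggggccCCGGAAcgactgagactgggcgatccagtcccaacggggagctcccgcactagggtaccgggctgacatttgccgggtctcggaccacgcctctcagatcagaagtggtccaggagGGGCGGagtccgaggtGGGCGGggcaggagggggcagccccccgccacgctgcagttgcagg
The motifs, searched on both strands, were the GC box GGGCGG, the TATA box TATAAA and the ETS core CCGGAA, the last because ETV4 and ETV5, transcription factors downstream of FGF, belong to the ETS family. Fgf12 holds 2 GC boxes that share 2 bases. Fgfr4 holds 2 GC boxes and 1 ETS core, and neither Fgf7 nor the printed Fgf13 start holds any of the 3. Of all 32851 promoters of this length 32.7% hold the GC box, 12.4% the TATA box and 12% the ETS core. The table covers 24 of the 32 members with 31 starts, of which 21 hold the GC box, 1 the TATA box and 4 the ETS core. The members' starts had a median of 15 CpG dinucleotides in these 250 bases, against 6 over all promoters.

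Among the secreted ligands, those that signal through the epithelial form of FGFR2 make up the Fgf7 subfamily, and all 4 had means below 0, with a median of -0.19. Fgf7, a ligand of the stroma that acts on the ureteric bud, had -0.64, -0.24 and -0.36 on arrays 1, 2 and 3. Its mean was -0.41 ± 0.21, or 1.33-fold higher at 13.5 dpc, with a limma 95% interval from -0.87 to 0.046 and an adjusted p of 0.553. It was below 0 on each array. Fgf10, a mesenchymal ligand of the same receptor form, had -0.89, 0.31 and 0.084, so array 1 alone put its mean below 0 (-0.16 ± 0.64). Without array 1 the mean of Fgf10 was 0.20. Fgf3, known for its part in inner ear development, had -0.21 ± 0.24. Fgf22, known from synapse formation, had -0.13, -0.095 and -0.039, the smallest spread of all members at 0.046 around a mean of -0.088.

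The Fgf8 and Fgf9 subfamilies hold the ligands with the best known parts in nephron formation. Fgf8 had no value on array 1, so it entered no test, and it had 0.13 and -1.06 on arrays 2 and 3, of opposite sign. Fgf17 and Fgf18, its nearest relatives, had a median of -0.96. Fgf18 had -0.27, -3.0 and -0.0072 (mean -1.09 ± 1.66, limma adjusted p = 0.644). Fgf17 had -1.94, -1.23 and 0.66, with a mean of -0.84 ± 1.35, so array 3 gave the opposite sign to the others. Without array 2 the mean of Fgf18 was -0.14, and that of Fgf17 ran from -1.59 without array 3 to -0.28 without array 1.

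Fgf9, made by the ureteric bud and the cap mesenchyme, had 0.055, -3.18 and 0.24. Its mean of -0.96 ± 1.93 (limma 95% interval from -3.16 to 1.24) became 0.15 without array 2. Fgf20, a ligand of the cap mesenchyme that acts together with Fgf9, had -0.059, -0.87 and -0.026, with a mean of -0.32 ± 0.48, which became -0.043 without array 2. For both ligands of nephron progenitors array 2 gave the lowest value and the others lay near 0. Fgf16, best known from the heart, had 0.27 ± 0.28, the highest mean of the members as deposited, while with array 3 turned Fgf23 (0.33) lay above Fgf16 (0.30). Cap mesenchyme markers had values for 7 of 7 genes, 4 below 0 and 1 (Osr1) above 0 on every array, with medians of -0.62, -0.14 and -0.026 on arrays 1, 2 and 3.

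The remaining ligands belong to the Fgf4, Fgf1 and endocrine subfamilies. In the Fgf4 subfamily, Fgf4, a ligand of the early embryo and limb, had a mean of -0.38 ± 0.41, Fgf5, which limits hair growth, -0.19 ± 0.27, and Fgf6, known from muscle, -0.030 ± 0.30. Fgf1 and Fgf2, the acidic and basic FGFs, had -0.20 ± 0.17 and -0.25 ± 0.41. The endocrine ligands had a median of 0.019. Fgf15, a gut hormone that regulates bile acid synthesis, had -0.25 ± 0.60, Fgf21, a metabolic hormone, 0.067 ± 0.35, and Fgf23, which controls phosphate loss in the adult kidney, 0.019 ± 0.49. Over the 21 ligands with all values, the median log2 ratio was -0.25 and the limma adjusted p lay between 0.539 and 0.981.

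**Figure D2:**
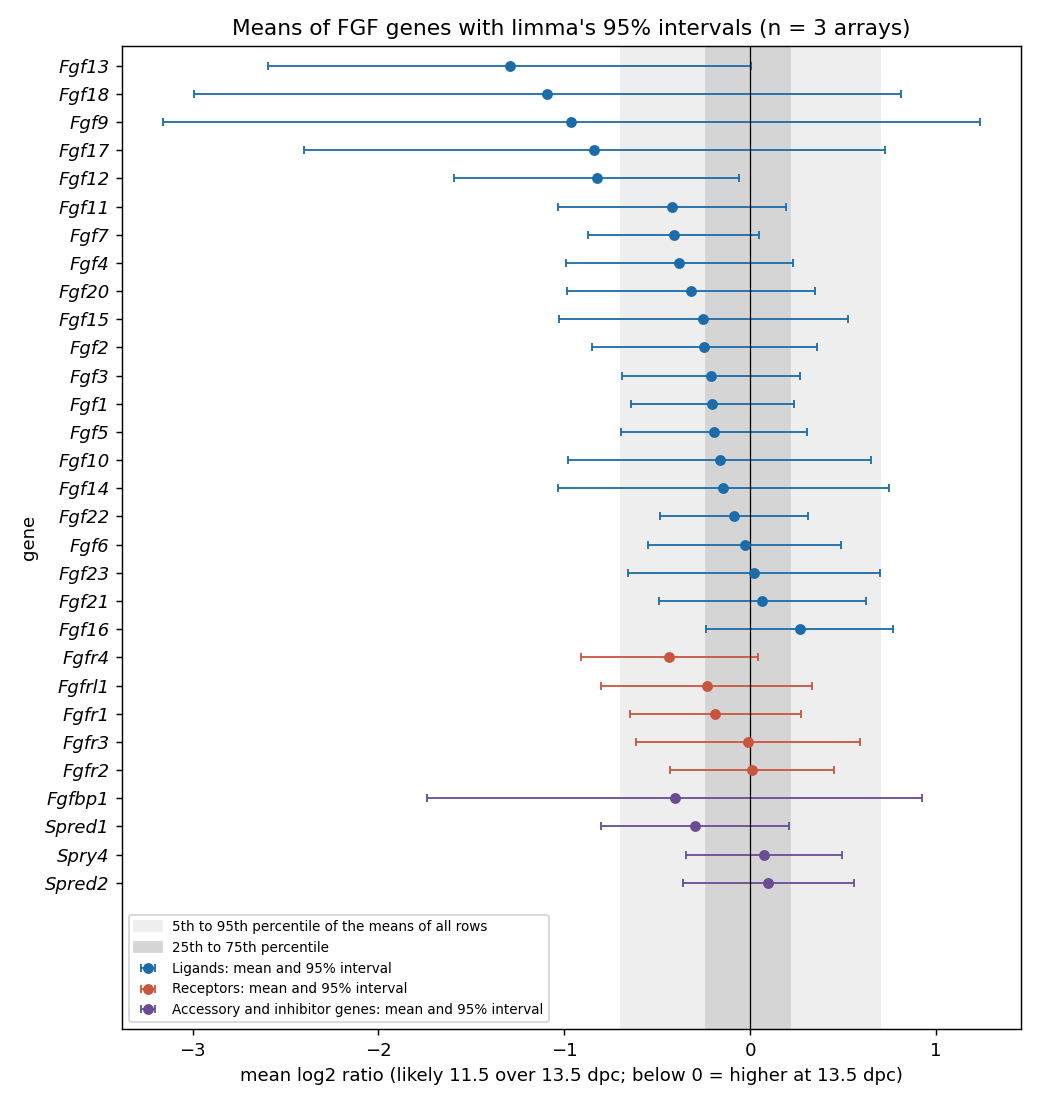
Means of the 30 FGF genes over 3 arrays (points, log2 ratio on the horizontal axis) are plotted with limma's 95% intervals (bars), over bands for the middle of the means of all 19015 rows. The interval of Fgf12 ends at -0.058 and that of Fgf13 at 0.0070, and the intervals of all members but Fgf12 include 0.

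The median SD between arrays was 0.24 for receptors, 0.42 for ligands and 0.34 over all rows, and with array 3 turned it was 0.36, 0.40 and 0.38 in the same order. These differences were not tested. Fgfr4 had -0.70, -0.23 and -0.38 on arrays 1, 2 and 3, the only receptor below 0 on each as deposited. Its mean was -0.44 ± 0.24, or 1.35-fold higher at 13.5 dpc, with a limma 95% interval from -0.91 to 0.042 and an adjusted p of 0.549. With the running median over library positions subtracted, its mean was -0.23. The receptor below 0 on each array was then Fgfrl1 and not Fgfr4. Fgfr1, the main receptor of the cap mesenchyme, had 0.011, -0.16 and -0.41 (mean -0.19 ± 0.21, limma 95% interval from -0.65 to 0.27). Fgfrl1, which lacks the kinase domain and without which mice form no metanephric kidney, had 0.13, -0.22 and -0.60, with a mean of -0.23 ± 0.36 and an interval from -0.80 to 0.34. Both lay lowest on array 3.

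Fgfr2, the receptor of the ureteric bud, had -0.15, -0.028 and 0.20. Its mean was 0.0081 ± 0.18 with a limma 95% interval from -0.43 to 0.45. Its arrays lay on both sides of 0. Fgfr3 had 0.24, -0.48 and 0.20, with a mean of -0.011 ± 0.40 and an interval from -0.61 to 0.59. The features are named by gene, so the epithelial and mesenchymal splice forms of the receptors were not told apart. In order of their means the receptors were Fgfr4, Fgfrl1, Fgfr1, Fgfr3 and Fgfr2, and each neighbour in that order lay within the other's interval. With array 3 turned the order was Fgfr4 (-0.18), Fgfr3 (-0.14), Fgfr2 (-0.12), Fgfr1 (0.084) and Fgfrl1 (0.17). The receptor median was -0.19, but 0.050 once a running median over library positions had been subtracted.

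Of the inhibitors, Spred1, which blocks the activation of Raf, was below 0 on every array as the average of 2 features (-0.12, -0.62 and -0.15, mean -0.29 ± 0.28). Spred2, a relative of the same function, had 0.098 ± 0.21. Spry4, a Sprouty inhibitor, had -0.022, 0.021 and 0.22, with a mean of 0.075 ± 0.13. Fgfbp1, a carrier that frees FGFs from the matrix, had -0.87, -1.23 and 0.88, with a mean of -0.41 ± 1.13, so the array of the other dye order gave the opposite sign. Frs3, an adaptor that couples receptors to the cascade, had no value on array 1 and had 1.62 and -0.44 on arrays 2 and 3.

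**Figure D3:**
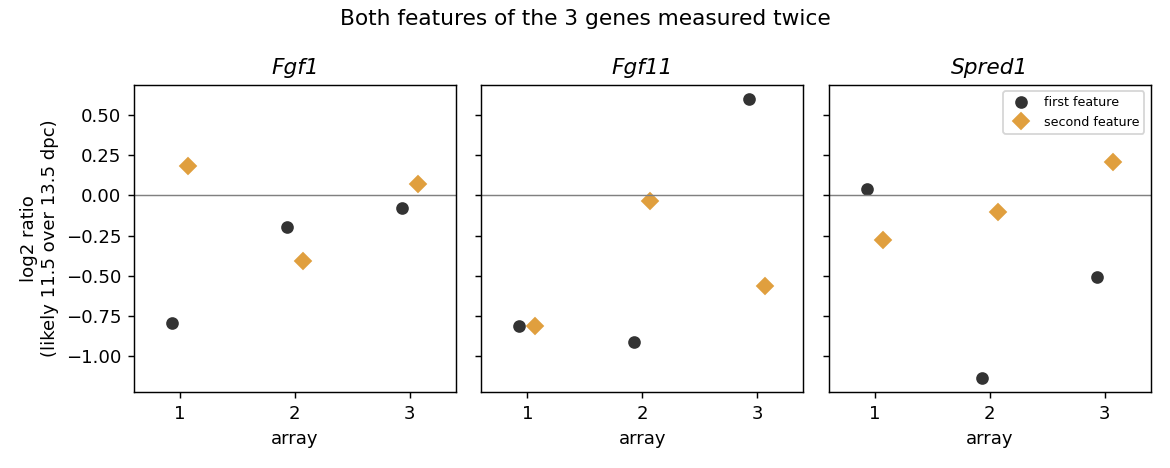
For the 3 members measured by 2 features, the log2 ratio of each feature (circles for the first, diamonds for the second in library order) is plotted by array. For Fgf11 the features lie together on array 1 and lie on opposite sides of 0 on array 3.

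The features of these genes differed. Those of Fgf11 had -0.81 and -0.81 on array 1, -0.91 and -0.037 on array 2, and 0.60 and -0.56 on array 3. The features of Fgf1 had -0.79 and 0.18 on array 1, -0.20 and -0.41 on array 2, and -0.079 and 0.073 on array 3. Spred1 had feature means of -0.53 and -0.057. The first feature of Fgf1 was below 0 on each array and its second on array 2 only, while neither feature of Spred1 was below 0 on all 3, so the place of both genes among the 9 members below 0 rests on averaging.

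The arrays of each dye order were also read apart. On arrays 1 and 2 (red/green), 17 of 30 members were below 0 on both, or 56.7%, beside 28.8% of all rows, and 2 (Fgf16 and Fgf23) were above 0 on both, where 35.8% of all rows were. On array 3 (green/red), 16 of 30 were below 0, beside 58.3% of all rows. The members' medians were -0.20, -0.23 and -0.0050 on arrays 1, 2 and 3, where all rows had 0.012, 0.064 and -0.091. With the sign of array 3 turned, 8 members were below 0 on every array (Fgf2, Fgf4, Fgf11, Fgf14, Fgf17, Fgf21, Fgfr2 and Fgfbp1), or 26.7%, beside 10.3% of all rows, and 2 above 0 (Fgf16 and Fgf23), where 18.9% of all rows were (29.2% with 1 sign). Age and dye order cannot be told apart on arrays 1 and 2 alone. In a limma fit to these arrays 5 members had an unadjusted p under 0.05 (Fgf17, Fgf13, Fgfbp1, Fgf4 and Fgf11, all below 0), beside 12.3% of all rows, with an adjusted p of 0.404 for each.

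Place in the oligonucleotide library is shared by many ligands. Of the 24 ligand features 14 lie within 34 consecutive positions of the library. Their medians were -0.45, -0.22 and -0.033 on arrays 1, 2 and 3. The other 20 features of that stretch had -0.29, -0.071 and -0.13, and the ligand features elsewhere had -0.30, -0.12 and -0.11. Those elsewhere are not free of position either. The running median at their places on array 1 ranged from -0.44 (Fgf15) to 0.15 (Fgf6). With library neighbours accounted for by the running median, the ligand median was -0.11 instead of -0.25. Then 5 members were below 0 on every array (Fgf7, Fgf12, Fgf13, Fgfrl1 and Spred1) and 4 above 0 (Fgf16, Fgf22, Fgfr2 and Spry4), or 30% with 1 sign, beside 35% of all rows. The part of library position in the ligands' values was not tested further.

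**Figure D4:**
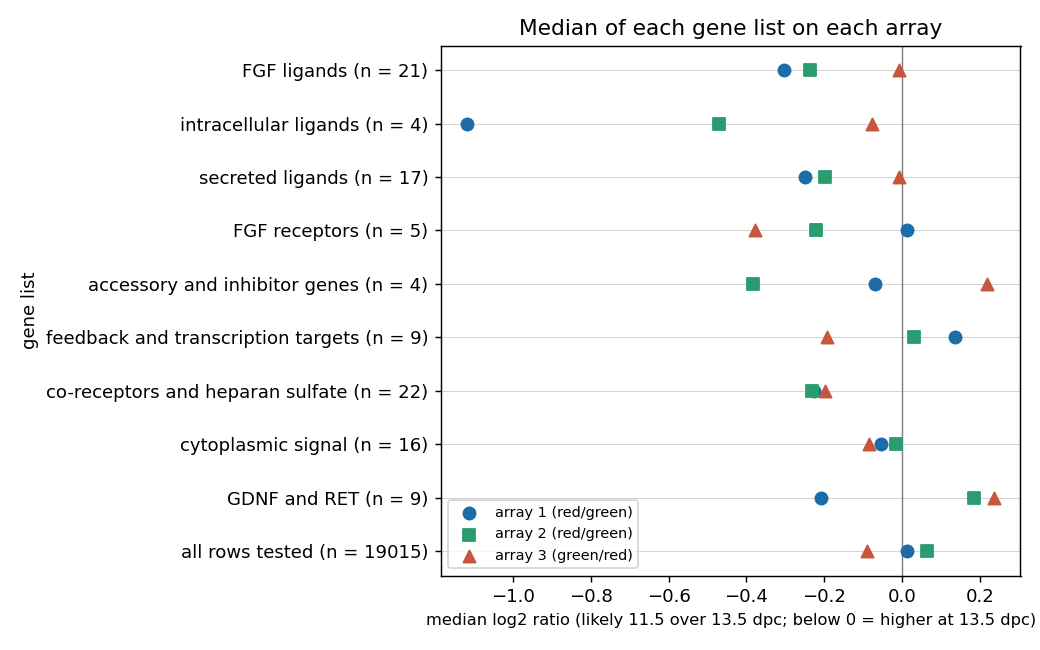
The median log2 ratio of each gene list (horizontal axis) is plotted on array 1 (circles), array 2 (squares) and array 3 (triangles), with the number of genes that had values on every array. Ligands lie at -0.30, -0.24 and -0.0072, while co-receptor and heparan sulfate genes lie at -0.23, -0.23 and -0.20.

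The other genes of the pathway were taken from 4 lists, and limma called 0 of their genes at an adjusted p under 0.05. Co-receptors and heparan sulfate genes, which hold FGFs at the cell surface, had 17 of 22 means below 0, with a median of -0.22, and 7 were below 0 on every array, or 31.8%, beside 18.5% of all rows. They included the syndecan gene Sdc4 (-0.43 ± 0.14) and the heparan sulfate 2-O-sulfotransferase gene Hs2st1 (-0.45 ± 0.19), which were the 2 of 22 genes at a limma unadjusted p under 0.05, near the 9.24% of all rows. Feedback and transcription targets had a median of -0.010 over 9 genes. Spry1, the Sprouty gene that restrains ureteric bud outgrowth, had -0.65, -0.42 and -0.26 (mean -0.44 ± 0.19), below 0 on each array, while Spry2 had -0.14 ± 0.13 and the MAP kinase phosphatase gene Dusp6 -0.15 ± 0.22. The ETS factor gene Etv4 had -0.78 ± 0.51 and its relative Etv5 -0.010 ± 0.36. On the 11.5 dpc side lay Flrt3, a membrane protein that binds FGF receptors, with 1.08, 0.71 and 1.21 (mean 1.00 ± 0.26, limma adjusted p = 0.397). At a limma unadjusted p under 0.05 were 1 of the 9 targets below 0 (Etv4) and 1 above 0 (Flrt3). Over all rows these shares were 5.07% and 4.17%.

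Cytoplasmic signal genes had a median of -0.021 over 16 genes, of which 5 lay below 0 and 2 above 0 on every array, beside 18.5% and 16.8% of all rows. Stat3, a transcription factor activated by many receptors, was the 1 of 16 with a limma unadjusted p under 0.05 (9.24% of all rows), at 1.22 ± 0.44 on the 11.5 dpc side. The GDNF and RET list had a median of -0.12 over 9 genes. It holds Gdnf, Gfra1 and Ret, the other receptor tyrosine kinase input to the ureteric bud, and their relatives. Gfra3, the receptor for artemin, was at least 2-fold on every array (2.63 ± 0.11), as 0.247% of all rows were on that side, and the ligand gene Nrtn had 0.52 ± 0.11, both on the 11.5 dpc side. Gfra3 and Nrtn were the 2 of 9 genes at a limma unadjusted p under 0.05, beside 9.24% of all rows. Gdnf, Gfra1 and Ret had -0.29 ± 0.16, -0.12 ± 0.41 and 0.30 ± 0.20.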

How the data were processed

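Log2 ratios were deposited by the authors, 1 per feature and array. Per the labels, images were quantified with ImaGene 5.5, and 2 accounts of normalisation are given, print-tip loess with a step between arrays in R, and a Lowess curve through 20% of the data with control values under 10 set to 10. The labels do not say which one made the values. The base was read from the values, leaving out the most extreme at either end. For 100% of the values checked, 2 to that power was a whole multiple of 0.001 within 0.02 of a step. Of 22702 features, 883 controls or blanks were left out. Features of 1 symbol with a value on all 3 arrays were averaged (19015 rows). Each row's mean was set against a log2 ratio of 0 by limma (version 3.58.1, R 4.3.3, two-sided, Benjamini-Hochberg over all rows). On shuffled values with known shifts added, only the fitted means were checked, which does not check the p-values. Nothing says that the arrays held separate RNA extracts, so a p-value reflects only how these arrays vary among themselves, possibly for technical reasons. Precision is limited by having 3 arrays. Spot intensities were not used here. Members and lists were chosen with earlier results of these data known. Every member is named. The 3 array values are given for receptors, for members of 1 sign with a mean of at least 0.5 in size or an unadjusted p under 0.05, and for 7 genes fixed in any case. Other genes were named at an unadjusted p under 0.05, at 2-fold on every array, or from a fixed set. Further members' array values, and the members listed with a count, were chosen after their values were seen. Alternatives changed the arrays, the sign of array 3, normalisation, library position (a window of 101 features), feature choice, dye term, weights and thresholds.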

Additional observations from a re-analysis of the deposited data

How the results depend on the processing

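Limma called 0 members and 0 of all rows at an adjusted p under 0.05 in every refit run, and unadjusted counts were 0 to 5 members without 1 array and 736 to 2346 rows. Other refits gave 2 members (array 3 turned), 5 (array weights) and 0 (ordinary test), against 1, and 2669 rows with a dye term, against 1757. Members of 1 sign on all arrays numbered 9, and 13 to 19 without 1 array, and all such rows 6713, and 9737 to 12271, since a sign then had to match on fewer arrays. Members at least 2-fold on every array numbered 0, and 0 to 2 without 1 array (Fgf13 and Fgf17 without array 3), while all rows numbered 130, 266 to 341 without 1 array, 42 with array 3 turned and 479 at 1.5-fold. The ligand median was -0.25, and ran from -0.45 (without array 3) to -0.20 without 1 array. The receptor median became 0.050 after the running median and ran from -0.29 to -0.087 without 1 array. The accessory median of -0.11 became 0.0089 with the least variable feature, 0.014 with a dye term and 0.075 with values on at least 2 arrays, and ran from -0.18 to 0.053 without 1 array.

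Of 30 member means, 13 kept their sign in all 13 refits. Not all of these refits could change a sign. The ordinary test and the use of values on at least 2 arrays left every member mean as it was. Median centring moved all means by the same amount, too small to change the sign of any member. The least variable feature could change only Fgf1, Fgf11 and Spred1. Means without 1 array that changed sign ran, for Fgf10, from -0.40 to 0.20 (without array 1), for Fgf14 from -0.47 to 0.24 (without array 1), for Fgf15 from -0.46 to 0.092 (without array 1) and for Fgf23 from -0.23 (without array 1) to 0.26. They ran for Fgf9 from -1.56 to 0.15 (without array 2), for Fgfbp1 from -1.05 to 0.0053 (without array 2) and for Fgfr3 from -0.14 to 0.22 (without array 2). They ran for Fgf21 from -0.13 (without array 3) to 0.18, for Fgf6 from -0.19 to 0.10 (without array 3), for Fgfr2 from -0.087 (without array 3) to 0.086 and for Spry4 from -0.0002 (without array 3) to 0.12. With array 3 turned, Spred2 (-0.042), Spry4 (-0.075), Fgf21 (-0.25), Fgf3 (0.093), Fgf5 (0.070), Fgf6 (0.17), Fgfr1 (0.084), Fgfr2 (-0.12) and Fgfrl1 (0.17) did. The running median turned Fgf14 (0.0011), Fgf22 (0.085), Fgfr1 (0.050) and Fgfr3 (0.11), the dye term Fgf14 (0.018), Fgf23 (-0.10) and Fgfr3 (0.041), and array weights Fgf21 (-0.034), Fgf6 (0.058) and Fgfr2 (-0.047). The cause was not tested. No separate paired analysis was needed, because each array holds both ages and the ratio tested is already the paired difference.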

Other observations

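The strongly negative values of Fgf9 (-3.18) and Fgf18 (-3.0) on array 2 alone have many counterparts. Over all 19015 rows, 125 lay at or below -2 on array 2 with the other arrays within 0.5 of 0, against 11 rows that did so on array 1 and 25 on array 3. At or above 2 on a single array with the others within 0.5, there were 209 rows on array 3, 21 on array 2 and 6 on array 1. Among the cytoplasmic signal genes the adaptor gene Gab2 had the same form, with -0.16, -2.91 and -0.095.

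Some FGF genes are neighbours in the genome. In the RefSeq gene order (GRCm38.p6), Fgf6 and Fgf23 are adjacent protein-coding genes on chromosome 6, and Fgf3, Fgf4 and Fgf15 follow each other on chromosome 7. Fgf6 and Fgf23 had 0.29 and 0.52 on array 1, -0.086 and 0.0043 on array 2, and -0.30 and -0.46 on array 3, so both lay above 0 on array 1 and below 0 on array 3. Fgf3, Fgf4 and Fgf15 had 0.021, -0.64 and -0.94 on array 1, -0.20, -0.60 and 0.019 on array 2, and -0.46, 0.096 and 0.17 on array 3, with no common sign on any array.

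Markers of the renal vesicle, the first structure in which Fgf8 is known to act, had values for 6 of 7 genes, 5 of them below 0 on every array, with a median of -0.70. Endothelial markers had a median of -0.47 over 6 genes. Of the 4 stromal markers with values (median 0.54), 3 were above 0 on every array and 1, Tcf21, was below 0 on every array. Erythroid markers had values for 5 of 6 genes, all above 0 on every array. Gonad and adrenal markers had a median of -0.48 over 4 genes, ureteric bud markers 0.13 over 6 and muscle markers -0.16 over 4.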
